A study of Homo sapiens with 8 samples.

Results

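Small Cajal body RNAs (scaRNAs) were examined in RNA-seq of A549 cells, an established human lung adenocarcinoma line. The rule named 10 genes, SCARNA2, SCARNA5, SCARNA6, SCARNA7, SCARNA8, SCARNA9, SCARNA10, SCARNA12, SCARNA13 and SCARNA17, and took the rows whose Ensembl identifier carries that symbol in GENCODE 44. All 10 had a row among the 58302 genes of the count table, and 6 of them had enough reads to be tested. The cells had been transfected with an siRNA to APE1, the DNA repair endonuclease encoded by APEX1 (4 libraries labelled siAPEX1), or with a scramble siRNA (4 libraries labelled siCTRL), and were collected 72 h later. The labels give no further treatment. The study calls its replicates biological, but the labels do not say that the 4 libraries of a group came from separate cultures, so p-values measure the spread between these libraries.

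scaRNAs are small nuclear RNAs that guide the chemical modification of spliceosomal snRNAs. Those with boxes C and D direct the 2′-O-methylation of a base paired with the stretch just before the D box, those with boxes H and ACA direct pseudouridylation, and several members carry both kinds of box. A further short motif, the CAB box, holds those that carry boxes H and ACA in the Cajal body, the nuclear body in which snRNAs are matured. Most vertebrate scaRNAs are cut out of the introns of host genes rather than transcribed alone.

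APEX1 (ENSG00000100823), the targeted gene, went against the labels. It had 51, 61, 64 and 47 counts in the siCTRL libraries and 21150, 19470, 27916 and 20767 counts in the siAPEX1 libraries, a log2 fold change of 9.29. The siRNA itself carries APEX1 sequence, and counts per gene do not separate it from the mRNA, so this row does not check the silencing, which the study followed at the level of the protein. Every direction below is therefore that of the libraries labelled siAPEX1 against the libraries labelled siCTRL. Gene counts summed to 1348386 to 1949886 per library, with all siAPEX1 libraries below all siCTRL libraries. Of the 10 A549 markers 9 were tested, of which 3 rose and 4 fell, the keratins KRT8, KRT18 and KRT19 among the latter, and EPCAM had at most 9 counts. Of the markers of other cell types PTPRC, CD3E and PECAM1 had at most 1 count in any library and COL1A1 at most 11.

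The guide stretches are shown first, because they are what ties each scaRNA to its snRNA. Each line gives the stretch of the scaRNA in lower case with the D box (or a box of the form NTGA) after it in capitals, both 5′ to 3′ in DNA letters from GENCODE 44 (GRCh38).
SCARNA5: ttggtaaaaggtCTGA
SCARNA6: tggtaaaaggtCTGA
SCARNA10: agatctttggtaatCTGA
SCARNA7: ttggagtgcatCTGA
SCARNA9: ctacacttgacCTGA
SCARNA2: tttgatcttatTTGA
SCARNA17: tattttccttatATGA

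The stretches of the snRNAs that these pair with are given next, with the base opposite the fifth base before the box in capitals, which is the base that the C/D rule places for methylation.
U5 with SCARNA5: gcctTttactaa
U5 with SCARNA6: gcctTttacta
U5 with SCARNA10: ttaCtaaagattt
U1 with SCARNA7: tgcActccgg
U2 with SCARNA9: tcaAgtgtag
U2 with SCARNA2: taaGatcaag
U12 with SCARNA17: gtaaGgaaaata

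Counted from 1 at the 5′ end of the snRNA, the marked base lay at position 41 of U5 for both SCARNA5 and SCARNA6, at position 45 of U5 for SCARNA10, at position 70 of U1 for SCARNA7, at positions 30 and 25 of U2 for SCARNA9 and SCARNA2, and at position 22 of U12 for SCARNA17. SCARNA2 had a second match to U2, of 9 pairs before GTGA, with position 138 opposite the fifth base. The search asked for at least 9 consecutive pairs, G-U pairs allowed, at least 8 of them Watson-Crick, ending at most 1 base before NTGA on the strand of the RNA. A match was found in 7 of the 12 pairs of a member with an snRNA named for it, and in 2 of the 38 pairs with another of the 5 snRNAs. The latter 2 were SCARNA5 with U4 and SCARNA2 with U12. Of the named pairs, SCARNA12 with U5, SCARNA17 with U4 and those of SCARNA8 and SCARNA13 had none. Where the names rest on the same kind of pairing, the difference follows from that, so these counts are no separate support. Of 992 snoRNA and scaRNA genes, 149 had such a match to any of the 5 snRNAs. A second stretch in SCARNA5, just before its last CTGA, pairs over 11 bases with U4, with position 65 opposite the fifth base. The H/ACA guides of SCARNA8 and SCARNA13, which are split over a stem, were not searched, though their pairs are among the 12.

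SCARNA5 and SCARNA6 are shown whole, since they share a guide and a host gene. Capitals mark the C box TGATGA and the guide stretch with its CTGA, which in SCARNA5 run on from each other, and also the second guide at the end of SCARNA5. SCARNA5 lies at chr2:233275727-233276002 and SCARNA6 at chr2:233288676-233288940, both on the plus strand of GRCh38.
SCARNA5: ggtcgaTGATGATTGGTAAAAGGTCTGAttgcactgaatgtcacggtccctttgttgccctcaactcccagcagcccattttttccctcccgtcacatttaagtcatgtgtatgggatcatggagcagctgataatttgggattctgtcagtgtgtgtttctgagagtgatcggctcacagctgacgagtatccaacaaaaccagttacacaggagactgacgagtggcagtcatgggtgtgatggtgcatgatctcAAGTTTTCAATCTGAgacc
SCARNA6: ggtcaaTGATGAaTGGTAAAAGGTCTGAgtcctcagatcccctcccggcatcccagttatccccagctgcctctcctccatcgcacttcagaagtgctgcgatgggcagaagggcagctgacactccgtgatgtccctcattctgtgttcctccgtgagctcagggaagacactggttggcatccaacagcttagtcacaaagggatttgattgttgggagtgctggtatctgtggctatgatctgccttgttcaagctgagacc

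These 2 RNAs, of 276 and 265 bases, were identical at 185 of 291 columns of their alignment (63.6%), so that their reads can be told apart over most of their length. The 2 members with the most reads, SCARNA8 and SCARNA13, are H/ACA RNAs and are shown for contrast, with a TGAG match to the CAB box and the ACA that precedes the last 3 bases in capitals. SCARNA8 lies at chr9:19063656-19063786 and SCARNA13 at chr14:95533355-95533629, both on the minus strand.
SCARNA8: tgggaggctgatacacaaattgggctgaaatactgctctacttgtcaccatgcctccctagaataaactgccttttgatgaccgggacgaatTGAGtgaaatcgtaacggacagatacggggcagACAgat
SCARNA13: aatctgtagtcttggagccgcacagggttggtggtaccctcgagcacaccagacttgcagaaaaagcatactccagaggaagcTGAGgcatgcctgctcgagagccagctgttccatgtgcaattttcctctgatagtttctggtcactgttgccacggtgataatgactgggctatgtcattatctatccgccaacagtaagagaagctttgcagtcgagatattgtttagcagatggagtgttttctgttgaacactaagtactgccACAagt

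Matches to such short motifs are common, and they were counted on the RNA strand only. The C box TGATGA was found in 8 of the 10 members and in 35.2% of the 992 snoRNA and scaRNA genes. CTGA was found in 10 members and 71.3% of those genes, and TGAG, which overlaps CTGA wherever CTGAG occurs, in 10 members and 62.7%. ACA at 3 bases from the end was found in 2 members, SCARNA8 and SCARNA13, and in 30.7% of the genes.

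All 6 tested scaRNAs were higher in the siAPEX1 libraries after scaling, by 0.47 to 0.76 on the log2 scale, and none reached the fold threshold of 1. Raw counts of these 6 genes overlapped between the groups. Levels below are CPM, counts relative to the library size after TMM scaling, a method that takes most genes as unchanged. Both steps add to the difference. Library sizes were smaller under siAPEX1, and the TMM factors were lower, at 0.88 to 0.92 against 1.10 to 1.13 under siCTRL. Tests are those of edgeR's quasi-likelihood fit, with p-values adjusted by Benjamini-Hochberg across 5368 genes. In bulk RNA, more RNA per cell and more cells that hold it cannot be told apart. Of those 5368 genes, 15.9% were higher and 31.7% changed in either direction at an adjusted p of at most 0.05, while 9.28% also reached the fold threshold, and 15.8% were lower. The 6 genes had at least 29 counts in every library, so none was let through the filter by 1 group alone.

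SCARNA8, an H/ACA RNA that guides pseudouridylation of U2, had 654, 693, 786 and 592 counts in the siCTRL libraries and 685, 677, 799 and 761 in the siAPEX1 libraries. In CPM this was 332 ± 16.7 against 561 ± 22.7 (SD, n = 4 each), and no siAPEX1 library reached down to the siCTRL libraries. Its log2 fold change was 0.76 (SE 0.087, edgeR adjusted p = 2.78e-09).

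SCARNA13, an H/ACA RNA assigned to U2 and U5, had 627, 545, 620 and 505 counts under siCTRL and 498, 486, 627 and 541 under siAPEX1. Its level was 280 ± 21.0 CPM against 412 ± 24.2 CPM (SD, n = 4 each), again without overlap between the groups. The log2 fold change was 0.56 (SE 0.090, edgeR adjusted p = 3.43e-06).

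SCARNA7, a C/D RNA that guides methylation of U1, had 254, 297, 321 and 240 counts under siCTRL and 252, 300, 322 and 311 under siAPEX1. Its level was 135 ± 9.47 CPM against 227 ± 17.5 CPM (SD, n = 4 each), and the libraries of the groups stood apart. The log2 fold change was 0.75 (SE 0.095, edgeR adjusted p = 2.85e-08).

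SCARNA5, which carries both kinds of box and guides U5, had 163, 172, 211 and 157 counts under siCTRL and 137, 170, 161 and 149 under siAPEX1. Its level was 85.6 ± 7.01 CPM against 119 ± 11.1 CPM (SD, n = 4 each), with no overlap, and its log2 fold change of 0.47 was the smallest of the 6 (SE 0.104, edgeR adjusted p = 4.21e-04).

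SCARNA6, its partner on U5, had 46, 46, 48 and 46 counts under siCTRL and 47, 62, 35 and 50 under siAPEX1. In CPM the siCTRL libraries lay close together, at 22.8 ± 1.48, and the siAPEX1 libraries spread more widely, at 37.7 ± 10.1 (SD, n = 4 each). The lowest siAPEX1 library, replicate 3 at 24.7 CPM, fell just below the highest siCTRL library, replicate 4 at 24.9 CPM. The log2 fold change was 0.72 (SE 0.164, edgeR adjusted p = 6.78e-04).

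SCARNA10, the third U5 guide with both kinds of box, had 44, 41, 30 and 34 counts under siCTRL and 30, 48, 29 and 42 under siAPEX1. Its level was 18.3 ± 3.39 CPM against 28.8 ± 8.02 CPM (SD, n = 4 each), with siAPEX1 replicate 3, at 20.4 CPM, below siCTRL replicate 1, at 21.6 CPM. The log2 fold change was 0.65 (SE 0.187, edgeR adjusted p = 0.00582), and GENCODE 44 places 75.2% of this gene under an overlapping gene of the same strand.

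**Figure D1:**
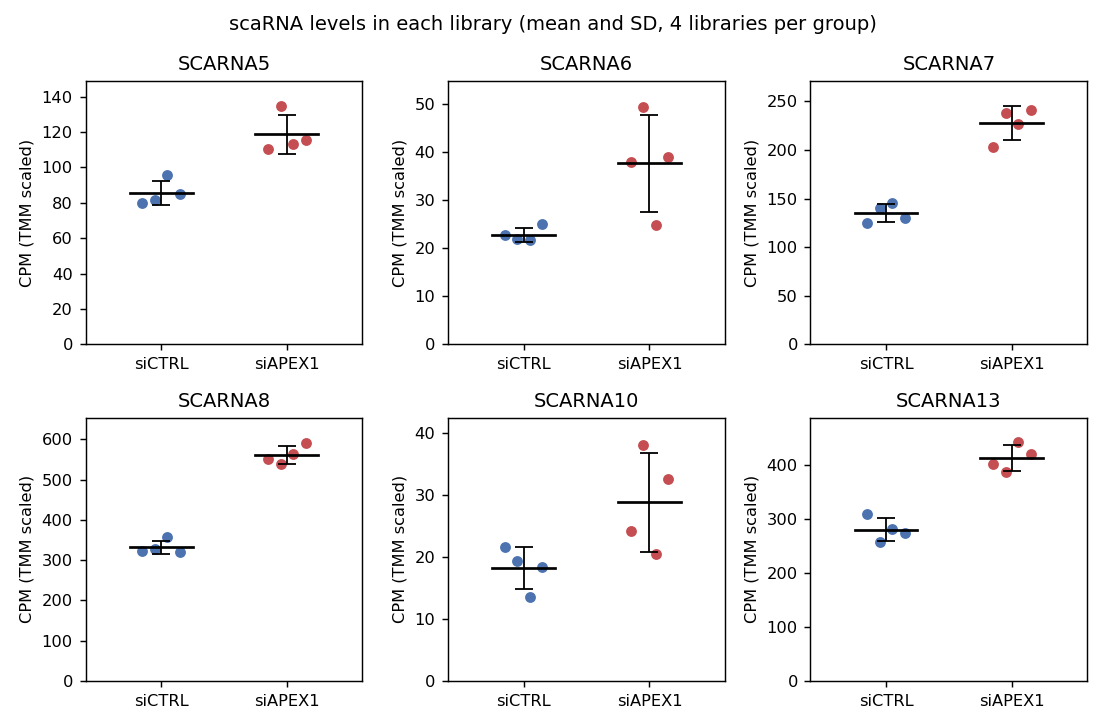
Level in CPM with TMM scaling (y axis, from 0) of the 6 tested scaRNAs in each library (points) of the groups siCTRL and siAPEX1 (x axis), with the mean and SD of 4 libraries as bars. The groups do not overlap for SCARNA5, SCARNA7, SCARNA8 and SCARNA13, while for SCARNA6 and SCARNA10 the lowest siAPEX1 library, replicate 3, lies below the highest siCTRL library.

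Of the 6 genes 4 had no overlap between the groups, where 14.0% of the 5368 genes tested lay wholly higher under siAPEX1. In every one of the 6 genes all 4 siAPEX1 libraries lay above the siCTRL mean. The spread within siAPEX1 was shared by some members. SCARNA6 and SCARNA10 were highest in siAPEX1 replicate 2, at 49.3 and 38.1 CPM, and lowest in replicate 3. SCARNA8 and SCARNA13 were lowest in replicate 2, at 537.8 and 386.1 CPM.

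The order of the levels was the same in both groups, set per length as in CPM alone. The kit tails the 3′ end of each RNA, and whether its reads scale with length was not tested. Under siCTRL, SCARNA8 stood at 2531 ± 128 CPM per kilobase, SCARNA13 at 1019 ± 76.5, SCARNA7 at 409.8 ± 28.7, SCARNA5 at 309.98 ± 25.4, SCARNA6 at 85.9 ± 5.58 and SCARNA10 at 55.3 ± 10.3 (SD, n = 4). No library of a gene overlapped a library of the next gene in that order under siCTRL. Under siAPEX1 the same held except for SCARNA6, at 142 ± 38.0 CPM per kilobase, and SCARNA10, at 87.4 ± 24.3, whose libraries overlapped.

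The rises of the 6 genes ran from 0.47 to 0.76 on the log2 scale. The log2 ratio of each of their 15 pairs, which does not depend on the scaling, differed between the groups by at most 0.29, and 2 of the 15 had no overlap between the groups. SCARNA7 gained on SCARNA5 by 0.28 and SCARNA8 gained on SCARNA13 by 0.20 (log2, exact permutation test, two-sided, unadjusted over 15 pairs, p = 0.0286 for each, the smallest that 4 against 4 libraries allow). The ratio of SCARNA6 to SCARNA5, whose guides are the same over 11 bases and whose introns belong to 1 host gene, was -1.91 ± 0.16 under siCTRL and -1.69 ± 0.34 under siAPEX1 (log2, mean ± SD, n = 4, exact permutation p = 0.343).

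Together the 10 members held 0.0982% ± 0.0043 of the counted reads under siCTRL, with a range of 0.0936% to 0.103%, and 0.123% ± 0.0027 under siAPEX1, with a range of 0.122% to 0.127% (SD, n = 4 each). The 2 ranges did not overlap. This share uses no TMM factor, and the difference was 0.0252 percentage points.

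The scaling set how large the rise came out. With library size alone and no TMM factor the median of all genes tested was -0.34 on the log2 scale, and SCARNA7, SCARNA8 and SCARNA13 kept an adjusted p of at most 0.05, at 0.41, 0.42 and 0.22, while SCARNA5, SCARNA6 and SCARNA10 came out at 0.13, 0.38 and 0.32 (edgeR adjusted p = 0.324, 0.0584 and 0.164). Relative to that median the 6 genes lay between 0.47 and 0.76 higher, the same span as under TMM to 2 decimals. TMM moved all genes by nearly the same amount, so this match follows from the scaling and is no separate support. Of the genes past both thresholds, 38.8% were higher under TMM and 11.5% with library size alone. At an adjusted p of at most 0.05 (edgeR), library size alone gave 346 of all 5368 genes tested as higher and 2263 as changed in either direction.

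**Figure D2:**
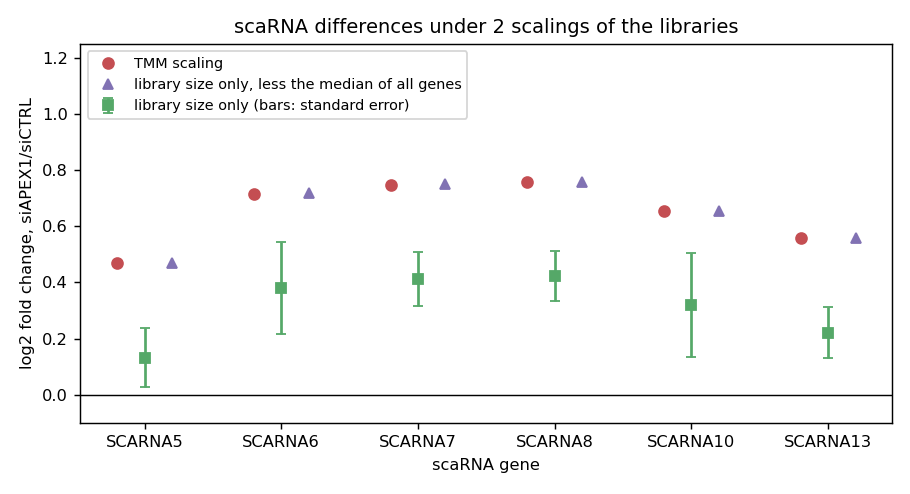
Log2 fold change of siAPEX1 against siCTRL (y axis) of the 6 scaRNAs (x axis) with TMM scaling (circles), with library size alone (squares, bars give the standard error) and with library size alone less the median of all genes tested (triangles). All 18 points lie above 0, and the squares lie lower than the circles by about the shift in the median of all genes, -0.34. The triangles repeat the circles by construction and are not a further scaling.

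The other 4 members gave almost no reads. SCARNA2 and SCARNA17 had 0 counts in all 8 libraries, SCARNA9 had 1 count in each of 2 siAPEX1 libraries, and SCARNA12 had 1 count in each of 3 libraries. A floor of 3 counts corresponds to 1.54 to 2.22 CPM before TMM scaling in these libraries, for counting error only, so no fold change is given. GENCODE 44 holds another gene of the same strand over 100% of SCARNA2, 100% of SCARNA12 (exons of PHB2), 100% of SCARNA17 (SNHG22) and 42.2% of SCARNA9. The counting that the authors used leaves out reads that fall on more than 1 gene, and the annotation they used is not known to be this release. The other 2 members covered over at least 50% did have reads, SCARNA13, under SNHG10 over 100%, with 486 to 627 counts, and SCARNA10, at 75.2%, with 29 to 48 counts. Of the 4 members without such an overlap, SCARNA5, SCARNA6, SCARNA7 and SCARNA8, all had over 10 counts in every library. Among the other 44 scaRNA genes of the table, 7 of the 8 that are covered over at least 50% had at most 3 counts in every library, against 27 of the 36 without an overlap. Whether overlaps account for the missing reads was not tested.

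Other scaRNA genes were higher as well. Of 44, 32 had no count in any library and 10 were tested, all 10 with at least 34 counts in every library. SCARNA1, SCARNA3, SCARNA11, SCARNA14, SCARNA18, SCARNA20, SCARNA21, SCARNA21B, SCARNA22 and SCARNA23 were all higher at an adjusted p of at most 0.05 (edgeR), by 0.33 to 0.84, and none reached the fold threshold. Among all 5368 genes tested 15.9% were higher at that adjusted p. SCARNA22 had 545, 548, 543 and 511 counts under siCTRL and 624, 546, 711 and 576 under siAPEX1, and its log2 fold change of 0.84 was the highest of the 10. SCARNA11, at 0.33, was the lowest and the only one of the 10 whose groups overlapped, where 14.0% of all genes tested lay wholly higher under siAPEX1. With library size alone 4 of the 10 passed, SCARNA14, SCARNA20, SCARNA22 and SCARNA23, and SCARNA11 came out at -0.0061. That setting gave 346 of all 5368 genes tested as higher. SCARNA11 and SCARNA21B also lost their call in DESeq2 and under both other filters, and both did so without siCTRL replicate 2, siCTRL replicate 3 or siAPEX1 replicate 3, SCARNA21B without siAPEX1 replicate 1 as well, and SCARNA11 with the replicate number as a block. SCARNA21 lost it when all genes with any count were tested.

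The median log2 fold change was 0.68 over the 6 tested members, 0.54 over the 10 other scaRNA genes, 0.53 over 62 SNORA genes and 0.48 over 87 SNORD genes, against 0.00 over all 5368 genes. SNORA and SNORD genes make the H/ACA and C/D snoRNAs, which guide the same modifications on rRNA. Of the SNORA genes 56 were higher and 0 lower at an adjusted p of at most 0.05 (edgeR), and of the SNORD genes 56 were higher and 8 lower. With library size alone 24 SNORA genes were higher and 1 lower, and 31 SNORD genes were higher and 19 lower. Of all 5368 genes, 2263 passed in either direction under that setting, and only 346 of them were higher. Whether the classes differ from the scaRNAs was not tested.

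**Figure D3:**
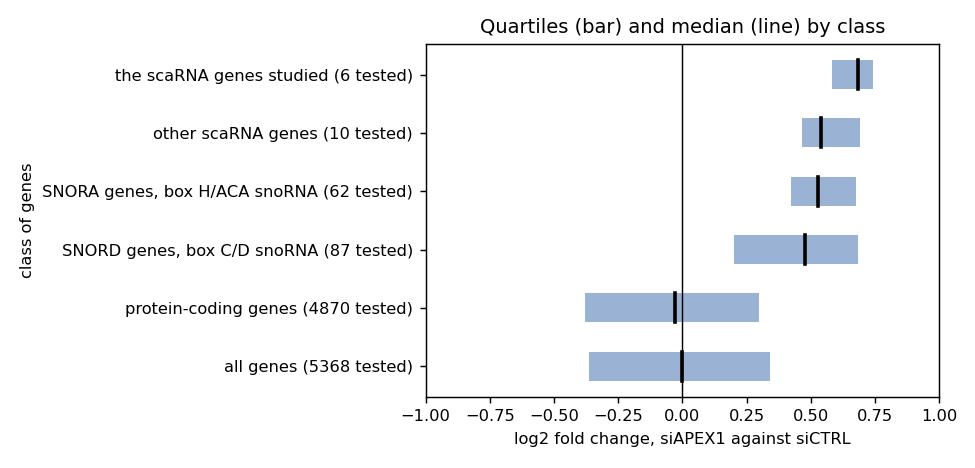
Log2 fold change of siAPEX1 against siCTRL (x axis) by class of genes (y axis), as the quartiles (bar) and the median (line) over the genes tested in each class. The medians of the 2 scaRNA groups, 0.68 and 0.54, lie near those of the SNORA and SNORD genes, 0.53 and 0.48, and those of all genes and of protein-coding genes lie at 0.00 and -0.03.

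The snRNAs that the scaRNAs guide could be followed for U1, U4 and U5. U5, the snRNA that holds the exons in the active spliceosome, had 5528, 5767, 6712 and 5947 counts summed over its 5 genes under siCTRL and 4521, 6084, 3652 and 4653 under siAPEX1. The sum was 2928 ± 245 CPM against 3666 ± 923 CPM (SD, n = 4 each) with overlap between the groups. Its genes did not move together. RNU5A-1 and RNU5B-1 are identical at 94.0% of their bases, and reads common to such copies could not be assigned to 1 gene, so the split between them is uncertain. RNU5A-1 and RNU5F-1 rose by 0.96 and 1.22 (SE 0.102 and 0.096, edgeR adjusted p = 4.97e-10 and 1.74e-13). RNU5B-1, with the most counts of the 5, had 2487, 2400, 3279 and 3062 counts under siCTRL and 2073, 3007, 1332 and 2097 under siAPEX1, a log2 difference of 0.27 that did not pass the test (adjusted p = 0.142). RNU5D-1 and RNU5E-1 came out at -0.03 and -0.06 (adjusted p = 0.877 and 0.719). Like SCARNA6 and SCARNA10, RNU5B-1 was highest in siAPEX1 replicate 2 and lowest in replicate 3.

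U1, which recognises the start of the intron, had 12998, 14031, 13878 and 10888 counts over its 30 genes under siCTRL and 9416, 9877, 11252 and 10349 under siAPEX1. The sum was 6305 ± 313 CPM against 7851 ± 195 CPM (SD, n = 4 each), without overlap between the groups. RNVU1-7, which differs from RNU1-1 at 1 of 164 bases, held 79.4% of them, and its log2 difference of 0.17 did not pass the test (edgeR adjusted p = 0.106). RNVU1-31, with 1450 to 1838 counts per library, rose by 0.64 (SE 0.087, edgeR adjusted p = 1.52e-07). Of the 17 U1 genes tested 14 were higher at an adjusted p of at most 0.05, most of them variants with few counts. Of these 14, 3 had under 10 counts in at least 1 siCTRL library, so that they passed the filter through the siAPEX1 libraries. The median log2 fold change of the 17 was 1.52, and with library size alone 14 were higher and 0 lower. Reads that fit more than 1 such copy make each single gene uncertain. RNU1-1 itself had 0 or 1 count in every library.

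U4, which pairs with U6 before the spliceosome is activated, rose in both of its genes under TMM, by 0.32 in RNU4-1 and 0.47 in RNU4-2 (SE 0.090 and 0.087, edgeR adjusted p = 0.00522 and 3.57e-05). RNU4-2 had 1607, 1966, 1935 and 1619 counts under siCTRL and 1433, 1725, 1591 and 1517 under siAPEX1. With library size alone they came out at -0.017 and 0.14 and neither passed, RNU4-1 also lost its call when all genes with any count were tested, and the log2 differences of RNVU1-7 and RNU5B-1 turned to -0.17 and -0.068. The 2 U2 genes RNU2-1 and RNU2-2P and the gene RNU12 of the minor spliceosome had 0 counts in all 8 libraries, so SCARNA2, SCARNA8, SCARNA9 and SCARNA17 could not be set against U2 or U12.

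**Figure D4:**
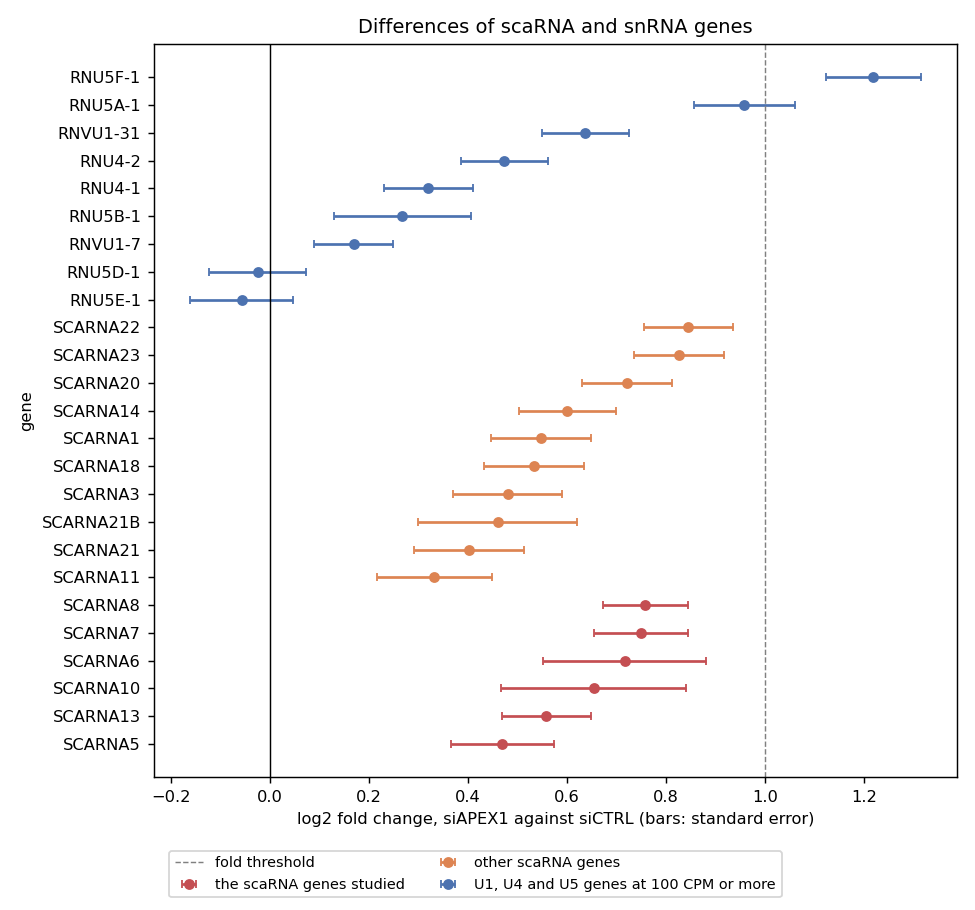
Log2 fold change of siAPEX1 against siCTRL with its standard error (x axis) of the 6 scaRNA genes studied, the 10 other scaRNA genes tested and the genes of U1, U4 and U5 with at least 100 CPM under siCTRL (y axis). The scaRNA genes lie between 0.33 and 0.84, whereas the U5 genes reach from -0.06 for RNU5E-1 to 1.22 for RNU5F-1, past the dashed line at the fold threshold of 1. Most of the 17 U1 genes tested lie below 100 CPM and are not shown.

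A ratio of a scaRNA to its snRNA within a library needs no scaling between libraries. Such ratios were formed for the 5 pairs of a tested member with an snRNA named for it that had reads (log2 of counts with 0.5 added to both, exact permutation test of 4 against 4 libraries, two-sided and unadjusted, smallest possible p = 0.0286). The ratio of SCARNA5 to U4, which its second guide stretch pairs with, was not formed. Between the group means in CPM the U4 sum rose by 0.42 (log2), and SCARNA5 rose by 0.47 (edgeR). The snRNA sums hold only reads assigned to 1 gene, and RNVU1-7 held 79.4% of those of U1. Each ratio is therefore to the assigned reads of a family, not to all of the snRNA. SCARNA7 to U1 was -5.54 ± 0.10 under siCTRL and -5.11 ± 0.083 under siAPEX1 (SD, n = 4 each), a rise of 0.43 with no overlap (exact p = 0.0286). SCARNA6 to U5 was -6.99 ± 0.093 and -6.60 ± 0.067 (SD, n = 4 each), a rise of 0.39 with no overlap (exact p = 0.0286). The wide spread of SCARNA6 in CPM within siAPEX1 was not seen in this ratio.

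The other 3 ratios overlapped between the groups. SCARNA5 to U5 differed by 0.18, from -5.09 ± 0.11 to -4.91 ± 0.29 (SD, n = 4 each, exact permutation p = 0.314), and by 0.040 without siAPEX1 replicate 3. SCARNA10 to U5 differed by 0.34, from -7.32 ± 0.36 to -6.98 ± 0.18 (SD, n = 4 each, exact permutation p = 0.171), and by 0.19 without siCTRL replicate 3. SCARNA13 to U5 differed by 0.27, from -3.38 ± 0.18 to -3.12 ± 0.45 (SD, n = 4 each, exact permutation p = 0.343), and by 0.074 without siAPEX1 replicate 3. In SCARNA5 and SCARNA13 siAPEX1 replicate 3, the library with the fewest U5 counts, was the highest of the 8, at -4.50 and -2.54. All 5 ratios were higher on average under siAPEX1. Those of SCARNA5, SCARNA6, SCARNA10 and SCARNA13 share the U5 sum, so they are not separate observations.

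**Figure D5:**
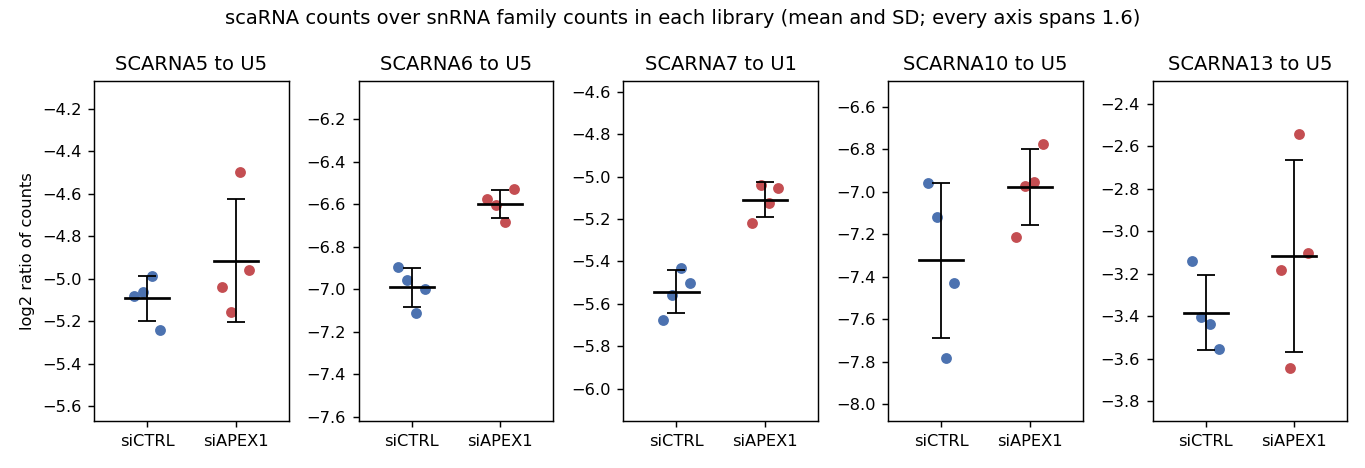
Log2 ratio of the counts of a scaRNA to the summed counts of the snRNA family it guides (y axis, 1.6 units in every panel) in each library (points) of siCTRL and siAPEX1 (x axis), with the mean and SD of 4 libraries. The groups stand apart for SCARNA6 to U5 and SCARNA7 to U1, and overlap for SCARNA5, SCARNA10 and SCARNA13 to U5.

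Of the host genes of the scaRNAs 5 could be tested, and 1 passed, where 31.7% of all genes tested passed in either direction. GENCODE 44 places SCARNA5 and SCARNA6 in introns of ATG16L1, an autophagy gene, SCARNA7 in an intron of KPNA4, a nuclear import receptor, SCARNA8 in HAUS6, a subunit of the augmin complex of the spindle, SCARNA9 in CEP295, a centriole protein, and SCARNA10 in NCAPD2, a condensin subunit. SCARNA12, SCARNA13 and SCARNA17 overlap exons of PHB2, a prohibitin, and of the non-coding hosts SNHG10 and SNHG22, and no host was found for SCARNA2. KPNA4 had 33, 29, 39 and 41 counts under siCTRL and 27, 24, 32 and 26 under siAPEX1, and its log2 difference was 0.27 (edgeR adjusted p = 0.284). HAUS6 had 14, 21, 14 and 16 counts and 7, 12, 11 and 9 counts, a difference of -0.08 (adjusted p = 0.864). NCAPD2 and PHB2 came out at 0.37 and -0.27 (adjusted p = 0.359 and 0.213). CEP295, the host of SCARNA9, was the one that passed, at 1.12 (SE 0.403, edgeR adjusted p = 0.0302), with 17, 3, 6 and 2 counts under siCTRL and 9, 11, 12 and 7 under siAPEX1 and overlap in CPM. It passed the filter on low counts through most of the siAPEX1 libraries together with siCTRL replicate 1. Its call was lost in 8 of 15 refits, without siCTRL replicate 2, 3 or 4 and without siAPEX1 replicate 2 or 3 among them, with adjusted p up to 0.112. ATG16L1, SNHG10 and SNHG22 had too few counts to be tested, at most 11 in any library.

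The ratio of a scaRNA to its host was tested for 3 pairs by exact permutation (two-sided, unadjusted). SCARNA8 to HAUS6 differed by 0.82, from 5.36 ± 0.34 to 6.18 ± 0.32 (log2, SD, n = 4 each, exact p = 0.0571). SCARNA7 to KPNA4 differed by 0.47 (exact p = 0.0857) and SCARNA10 to NCAPD2 by 0.31 (exact p = 0.686), which turned to -0.063 without siAPEX1 replicate 4. None of the 3 passed 0.05, and the hosts' counts of 6 to 41 per library limit what could be seen.

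Genes of the proteins that bind, modify or assemble these RNAs were counted in 8 lists. Of their 70 genes 40 were tested, of which 4 (10%) rose and 3 (7.5%) fell at an adjusted p of at most 0.05 (edgeR), against 15.9% and 15.8% of all genes tested. The 4 core proteins of C/D particles were all tested and none passed, the methyltransferase FBL lying at -0.20 (edgeR adjusted p = 0.173) with the most counts. Of the 6 H/ACA core and assembly proteins 3 were tested and none passed, with the pseudouridine synthase DKC1 at 0.05 (adjusted p = 0.844). Of 11 Cajal body and telomerase proteins 3 were tested and 1 rose, TCOF1, at 0.89 (SE 0.254, edgeR adjusted p = 0.00565), a nucleolar protein, a call lost with library size alone (adjusted p = 0.0748). COIL, the coilin that marks Cajal bodies, and WRAP53, which binds the CAB box, had at most 11 counts in any library and were not tested. The telomerase RNA TERC, also an H/ACA RNA with a CAB box, had 0 counts in all 8 libraries.

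Of the 8 Sm proteins, which form the ring around snRNAs, 1 rose and 2 fell. SNRPD3 had 27, 25, 40 and 23 counts under siCTRL and 5, 3, 8 and 9 under siAPEX1, without overlap, and fell by 1.53 on the log2 scale (SE 0.291, edgeR adjusted p = 5.49e-05). SNRPD3, like PIH1D1 below with 2 to 10 counts under siAPEX1, passed the filter on low counts through the siCTRL libraries, where it is high. SNRPB fell by 0.61 (adjusted p = 0.0106) and SNRPE rose by 0.49 (adjusted p = 0.0346), both with overlap. SNRPE lost its call in 9 of 16 refits (adjusted p up to 0.526), without siCTRL replicate 2, 3 or 4 and siAPEX1 replicate 1 or 2 among them, and SNRPB in 3, DESeq2 and those without siCTRL replicate 1 or siAPEX1 replicate 1 (up to 0.102). SNRPD2, with the most counts of the 8, was at 0.19 (adjusted p = 0.247). Of the 10 SMN complex proteins only STRAP was tested, at 0.16 (adjusted p = 0.543), and none of the 4 tested of 9 cap and trafficking factors passed, with XPO1, an export receptor with the most counts, at 0.09 (adjusted p = 0.712). Of 7 snoRNP assembly factors 5 were tested and PIH1D1 fell by 1.09 (SE 0.323, edgeR adjusted p = 0.00795), a call lost without siAPEX1 replicate 4 (adjusted p = 0.0729). Of 15 proteins particular to single snRNPs 12 were tested and 2 (16.7%, near the 15.9% of all genes) rose, SNRPB2 of U2 at 0.35 and SF3B1 of U2 at 0.39 (adjusted p = 0.0384 and 0.0274), and each lost its call in 7 of 16 refits, with library size alone, DESeq2, both other filters and 3 of the 8 refits that left out a library (SNRPB2 without siCTRL replicate 2 or 3 or siAPEX1 replicate 3, SF3B1 without siCTRL replicate 1 or 2 or siAPEX1 replicate 3). The medians of the 8 lists ran from -0.36 for the Sm proteins to 0.20 for the snRNP proteins, against 0.00 for all genes.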

How the data were processed

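RNA-seq was carried out by the authors in A549 cells with a small RNA kit that tails the 3′ end of each RNA. Reads were trimmed with cutadapt and aligned to GRCh38 with STAR 2.5.3a per the labels, and the authors deposited counts per Ensembl gene, whole numbers without normalization. The annotation release and the strand setting are not given in the sources used here. Groups and replicate numbers come from the sample titles. GENCODE 44 holds 57532 of the 58302 genes.

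Here, edgeR 4.0.16 (R 4.3.3) was used with TMM factors, quasi-likelihood tests and Benjamini-Hochberg adjustment over 5368 genes kept by filterByExpr (minimum count 10, minimum total 15). The SE is the log2 fold change divided by the square root of F. The 2 thresholds were 1 for the size of the log2 fold change and 0.05 for the adjusted p. Ratios were tested by exact permutation of 70 labelings. The scripts were tested on simulated data. The alternatives were other scalings, DESeq2 1.42.0, other filters, a fold threshold of 0.75, other pseudocounts and single snRNA genes for the ratios, a replicate block, and each library left out.

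The members, lists and tests were chosen with earlier results of these data known. APEX1 was to be named first, then the 10 members whatever their values, other scaRNA genes at an adjusted p of at most 0.05, the snRNA family genes of most counts, the hosts, and the genes of each list that passed or had the most counts. RNU5A-1, RNU5D-1, RNU5E-1, RNU5F-1, RNU4-1, RNU1-1, COIL, WRAP53, TERC and the pairs of members were added after their values were seen.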

Additional observations from a re-analysis of the deposited data

Results flagged for a closer look

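Samples far from the others of their group were sought with Dixon's test in 30 groups of 4 libraries, covering the 6 tested scaRNAs, their share of reads and the ratios to snRNAs and hosts. Chance marks about 1 group in 20, and 2 were marked. The share of reads held by the 10 scaRNAs was 0.127% in siAPEX1 replicate 4, above the other siAPEX1 libraries at 0.122% each. The log2 ratio of SCARNA10 to NCAPD2 was 2.08 in siCTRL replicate 1, where NCAPD2 had 10 counts against 16 to 19 in the other siCTRL libraries.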

How the results depend on the processing

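The 6 scaRNAs were refitted 96 times and stayed higher in all 96, and in 93 at an adjusted p of at most 0.05. The exceptions came with library size alone, where 3 of 6 genes passed and SCARNA5, SCARNA6 and SCARNA10 gave log2 fold changes of 0.13, 0.38 and 0.32. With DESeq2 all 6 passed, as they did with the replicate number as a block and with each library left out, where the highest adjusted p was that of SCARNA10 without siAPEX1 replicate 2, at 0.0470. With a fold threshold of 0.75 in place of 1, 1 scaRNA, SCARNA8, passed both thresholds. Genes past both thresholds numbered 498, and 934 at a threshold of 0.75, 943 when all genes with any count were tested and 181 when only those with 10 or more counts in each library were, since other genes were then tested. The replicate block gave 494. Libraries of the same number did not deviate together (correlations of deviations from -0.038 to -0.003), so the numbers do not pair them.

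The difference in the scaRNAs' share of reads was 0.0402 percentage points with rRNA and mitochondrial genes left out of the total. The 5 ratios to snRNAs kept their direction and their side of 0.05 under all alternatives run, but leaving out 1 library moved SCARNA5 to U5 between 0.040 and 0.26, SCARNA10 to U5 between 0.19 and 0.47 and SCARNA13 to U5 between 0.074 and 0.44. For the hosts, leaving out 1 library moved SCARNA7 to KPNA4 between 0.33 and 0.59 (exact permutation p = 0.0286 without siCTRL replicate 2), SCARNA8 to HAUS6 between 0.71 and 0.96 (0.0286 without siAPEX1 replicate 2) and SCARNA10 to NCAPD2 between -0.063 and 0.58, turning its direction without siAPEX1 replicate 4. Of the genes in the 8 protein lists 4 rose, 3 fell and 2 passed both thresholds. With library size alone 0 rose and 12 fell, where 2263 of all 5368 genes tested passed in either direction and only 346 of them were higher. With DESeq2 1 rose, and with all genes of any count 2 rose. With 10 or more counts in each library 0 rose, 5 fell and 0 passed both thresholds, SNRPD3, PIH1D1 and TCOF1 then not being tested. Of all 3147 genes tested under that filter 1192 passed, 581 of them higher. Leaving out 1 library gave 1 to 4 that rose, and 1 (without siCTRL replicate 1 or siAPEX1 replicate 4) or 2 past both thresholds. Of the 10 scaRNAs 4 had too few counts to be tested, as did U2, U12 and most Cajal body proteins, and the cause was not tested.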
